A study of Mus musculus with 6 samples.

Results

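The nuclear factor I (NFI) family consists of the transcription factor genes Nfia, Nfib, Nfic and Nfix. They were taken as the rows of the raw count table that carry these gene names, and they are 4 of the 54532 genes in the table. All 4 had enough reads to be tested, among 17505 genes tested in all. The transcription factor annotation in the table lists 1469 genes, and its CTF/NFI family holds 4 genes, these members.

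The data are poly(A) RNA-seq libraries of whole mouse cerebellum at postnatal day 1 (P1). The control group was 3 littermates of genotype Tox3f/f, with both Tox3 alleles floxed and no Cre. The cKO group was 3 mice of genotype Nestin-cre;Tox3f/f, with the same floxed alleles and Cre driven by the Nestin promoter, which is active in neural progenitors and their descendants. No control carried Nestin-cre, so effects of Cre and of Tox3 loss cannot be told apart. Libraries held 15391854 to 17178478 gene counts. On the first 2 principal components, control 1 and cKO 2 stood apart from the other libraries of their groups. Y-linked transcripts were found in control 1, cKO 1 and cKO 3, so both sexes were present, but unevenly between the groups. The libraries that stood apart, control 1 and cKO 2, were each the only one of their sex in their group. Tox3 itself, counted over the whole gene, was at 63.0 to 64.4 CPM (counts scaled to library size) in the controls and 55.3 to 63.2 CPM in the cKO libraries (adjusted p = 0.252, edgeR quasi-likelihood test), so the whole-gene count does not check the labels. Genes of the cerebellar granule lineage were abundant, with Zic1 at 1594 ± 23.4 CPM and Pax6 at 367 ± 28.1 CPM in the controls (SD, n = 3).

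NFI proteins bind DNA as dimers through a conserved domain at their N-terminus, and they recognise a palindrome in which TTGGC is followed by its inverted copy. In the developing cerebellum they are known for driving granule neurons from the young to the mature state, including axon extension, migration and dendrite formation. In the glial lineage NFIA acts with Sox9 at the start of gliogenesis, and NFI factors control astrocyte genes such as Gfap. Granule neuron progenitors (GNPs) divide in the external granule layer at this age, and Atoh1 is the factor that maintains them.

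The family members are close relatives, which raises the question of whether a sequencing read can be assigned to 1 of them. The stretch of 90 Nfia coding bases with the most matches to the other members is shown here, as a place where reads would be hard to tell apart. It was chosen by matches to Nfia in 1 transcript per gene, and likeness between the other members was not scored. It lies near the start of the coding sequence, in exon 2 of each transcript shown, within a single exon, and encodes part of the N-terminal region. Sequences are from the GENCODE M21 transcripts (GRCm38), 5′ to 3′ on the coding strand, and capitals mark bases that differ from Nfia.
Nfia: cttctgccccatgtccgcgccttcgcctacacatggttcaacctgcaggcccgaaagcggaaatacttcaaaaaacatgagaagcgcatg
Nfib: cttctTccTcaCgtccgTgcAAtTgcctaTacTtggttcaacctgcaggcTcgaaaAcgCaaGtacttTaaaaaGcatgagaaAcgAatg
Nfic: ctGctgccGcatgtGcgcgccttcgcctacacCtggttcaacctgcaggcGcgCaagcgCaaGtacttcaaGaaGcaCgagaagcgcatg
Nfix: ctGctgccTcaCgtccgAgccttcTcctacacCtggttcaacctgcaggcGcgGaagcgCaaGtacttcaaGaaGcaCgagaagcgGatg

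These windows lie at chr4:97783109-97783198 on the plus strand (Nfia), chr4:82498653-82498742 on the minus strand (Nfib), chr10:81420682-81420771 on the minus strand (Nfic) and chr8:84772199-84772288 on the minus strand (Nfix). Even there, Nfib differed from Nfia at 17 of 90 bases, Nfix at 14 and Nfic at 11. Of these differences, 16, 13 and 11 fell on the last base of a codon. Over the whole coding sequence, the identity between pairs of members ran from 67.0% (Nfib and Nfic) to 71.7% (Nfic and Nfix). The longest run of identical bases between any transcripts of different members was 32 bases, for Nfic and Nfix, against a read length of 150 bases. No full-length read from an annotated transcript could therefore match 2 members exactly.

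Nfia and Nfib fell by about the same amount in the cKO cerebellum, to 67.2% and 66.4% of their control levels, in the fit without covariates. With Y-linked transcript levels as a covariate, their log2 fold changes were -0.62 and -0.53. Nfic was lower by a smaller amount, at 82.6% of control, and passed the adjusted p threshold but not the fold threshold. For Nfix, the most abundant member, the level in the cKO libraries was 101% of control. A gene was called when its adjusted p was below 0.01 and its log2 fold change was larger than 0.5 in size, with edgeR's quasi-likelihood test and Benjamini-Hochberg adjustment over the 17505 genes. By that rule 2 of the 4 members were called lower, where 3.63% of all tested genes and 5.86% of the 1076 tested transcription factor genes were called lower.

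Nfia (ENSMUSG00000028565; GRCm38 chr4:97772734-98118874, plus strand) is best known for starting gliogenesis and for astrocyte identity. Its level in FPKM, a count scaled for gene length and library size, was 24.4, 23.2 and 21.2 in control 1 to 3. In cKO 1 to 3 it was 15.5, 14.1 and 16.8 FPKM. The lowest control library stood above the highest cKO library. The means were 23.0 ± 1.65 and 15.5 ± 1.34 FPKM (SD, n = 3 each), from 2389 to 4129 reads per library. In the edgeR fit the log2 fold change was -0.57 (SE 0.07, 95% interval -0.73 to -0.42, adjusted p = 3.90e-04).

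Nfib (ENSMUSG00000008575; chr4:82290173-82705750, minus strand) lies on the same chromosome and is known for roles in both neuronal and glial maturation. It was at 39.6, 45.6 and 44.1 FPKM in control 1 to 3. In cKO 1 to 3 it was at 26.9, 31.4 and 28.0 FPKM. Again every control library was above every cKO library, and control 1 was the lowest control while cKO 2 was the highest cKO library. The means were 43.1 ± 3.10 and 28.7 ± 2.36 FPKM, from 6729 to 10561 reads per library. The log2 fold change was -0.59 (SE 0.07, 95% interval -0.75 to -0.43, adjusted p = 4.01e-04, edgeR).

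Nfic (ENSMUSG00000055053; chr10:81396186-81455635, minus strand) is the member known outside the brain for tooth root formation. It was at 21.4, 21.6 and 20.3 FPKM in control 1 to 3, and at 18.6, 16.2 and 17.7 FPKM in cKO 1 to 3. The groups did not overlap, but they were closer than for Nfia and Nfib. The means were 21.1 ± 0.699 and 17.5 ± 1.20 FPKM, from 1671 to 2221 reads per library. The log2 fold change was -0.28 (SE 0.06, 95% interval -0.41 to -0.15, adjusted p = 0.00686, edgeR), which is inside the fold threshold. At that adjusted p threshold alone, 7.24% of tested genes were lower.

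Nfix (ENSMUSG00000001911; chr8:84699876-84800344, minus strand) is known for the timing of neural stem cell differentiation. Control 1 to 3 gave 83.7, 85.2 and 89.7 FPKM, and cKO 1 to 3 gave 83.6, 90.2 and 88.3 FPKM. The 2 groups overlapped along nearly their whole range. The means were 86.2 ± 3.10 and 87.4 ± 3.40 FPKM, from 9546 to 10672 reads per library. The log2 fold change was 0.01 (SE 0.05, adjusted p = 0.867, edgeR), and its 95% interval of -0.10 to 0.13 corresponds to 93.4% to 109% of control.

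**Figure D1:**
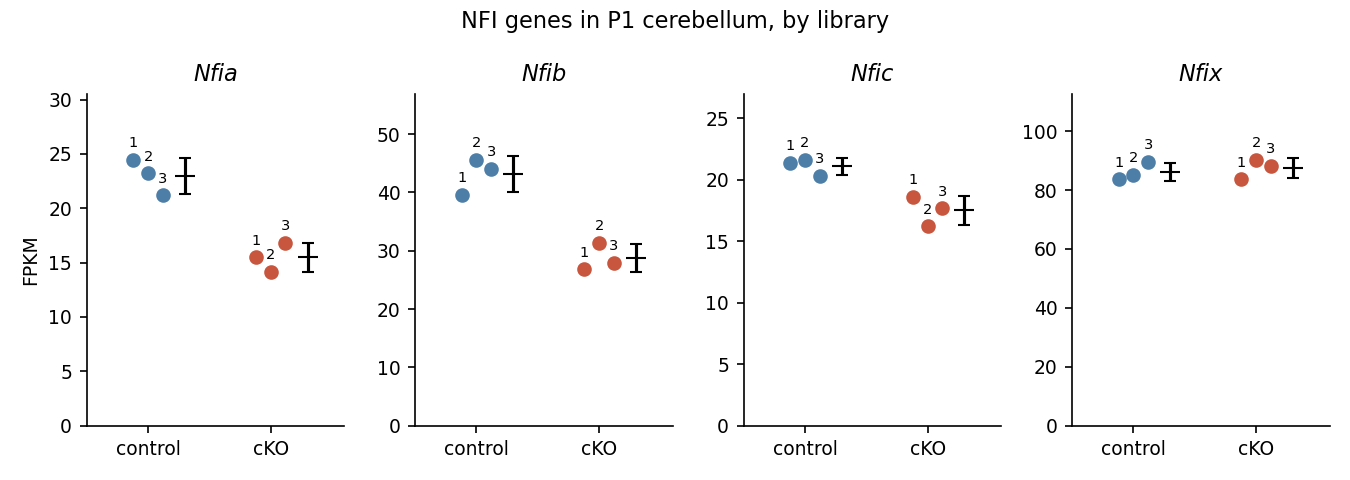
FPKM of the 4 NFI genes in each library, with the replicate number above each point and the mean ± SD (n = 3) in black beside it. For Nfia, Nfib and Nfic every cKO library was below every control library, while the Nfix libraries of both groups sat between 83.6 and 90.2 FPKM.

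All 3 cKO libraries were below all 3 controls for 3 of the 4 members, and this held for 20.1% of all tested genes and 30.9% of tested transcription factor genes. The median log2 fold change was -0.43 for the 4 members, -0.01 for all tested genes and -0.12 for tested transcription factor genes. The Nfia value lies close to the fold threshold. With control 1 and cKO 2 both left out, a setting added once the data had been seen, the log2 fold change of Nfia was -0.46 (adjusted p = 9.63e-05, edgeR), short of the threshold. That of Nfib was -0.72, so 1 of the 4 members was then called. Judged by Y-linked transcripts, that setting sets female controls against male cKO libraries, so sex and genotype cannot be told apart in it.

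**Figure D2:**
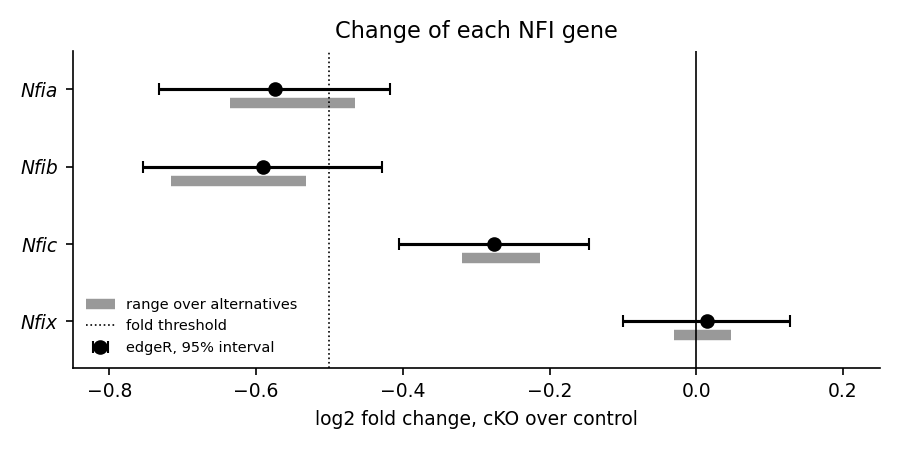
Log2 fold change of each NFI gene, cKO over control, with its 95% interval from the edgeR fit (black) and the range over 18 alternative analyses (grey bar). The intervals of Nfia, Nfib and Nfic lay below 0, and that of Nfix, -0.10 to 0.13, spanned 0.

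Ratios between members within a library, which do not depend on library depth, were compared to see whether the members changed by unequal amounts. Each of the 6 pairs was tested with an exact two-sided permutation test of 3 libraries against 3, in which 0.1 is the smallest p possible, so no pair could pass 0.05. Relative to Nfix, Nfib had a log2 ratio of -1.08, -0.90 and -1.02 in control 1 to 3 and -1.64, -1.52 and -1.66 in cKO 1 to 3. The means differed by -0.61 without overlap (exact p = 0.1, adjusted over the 6 pairs 0.15). The Nfia to Nfix ratio differed by -0.59 and the Nfic to Nfix ratio by -0.29, both without overlap and both with exact p = 0.1, adjusted 0.15. Nfia, Nfib and Nfic were thus each lower relative to Nfix in every cKO library than in any control.

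The ratio of Nfia to Nfib was the most alike between groups of the 6. Its log2 value averaged -0.91 ± 0.19 in the controls and -0.89 ± 0.23 in the cKO libraries (SD, n = 3), a difference of 0.02 (exact p = 1). The SD between libraries was larger than this difference. The ratio was -0.70, -0.79 and -0.73 in control 1, cKO 1 and cKO 3, where Y-linked transcripts were found. In control 2, control 3 and cKO 2 it was -0.97, -1.06 and -1.15. Sex was uneven between the groups, so the difference of the means mixes sex with genotype. The ratio of Nfia to Nfic was above 0 in all 3 controls, at 0.19, 0.10 and 0.06, and below 0 in all 3 cKO libraries, at -0.26, -0.20 and -0.07. Nfia thus ranked above Nfic in every control and below it in every cKO library (difference -0.30, exact p = 0.1, adjusted 0.15). The ratio of Nfib to Nfic differed by -0.31, with overlap between the groups (exact p = 0.2, adjusted 0.24).

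Ordered by FPKM, which corrects for gene length, the control levels ran Nfix, Nfib, Nfia and Nfic. Nfix and Nfib were each separated from the next member by more than the spread between libraries. The ranges of Nfia and Nfic overlapped in the controls and again in the cKO libraries, where their means were 15.5 and 17.5 FPKM. Among all 1469 annotated transcription factor genes ranked by mean FPKM, Nfix was number 10 in the controls and 9 in the cKO libraries. Nfib went from 36 to 68, Nfia from 109 to 154 and Nfic from 117 to 131.

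The summed FPKM of the family was 169, 176 and 175 in control 1 to 3 and 145, 152 and 151 in cKO 1 to 3, so the cKO mean was 86.0% of the control mean. Nfix made up 49.5%, 48.5% and 51.2% of this sum in the controls. In cKO 1 to 3 its share was 57.8%, 59.4% and 58.6%. The share of Nfib went from a mean of 24.8% ± 1.30 to 19.3% ± 1.20, and that of Nfia from 13.3% ± 1.18 to 10.4% ± 0.967 (SD, n = 3). The share of Nfic was 12.2% ± 0.541 and 11.8% ± 1.10. The summed FPKM of the family was thus lower in the cKO libraries and held a greater proportion of Nfix. FPKM is scaled to library size, so the absolute amount of NFI mRNA was not measured.

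**Figure D3:**
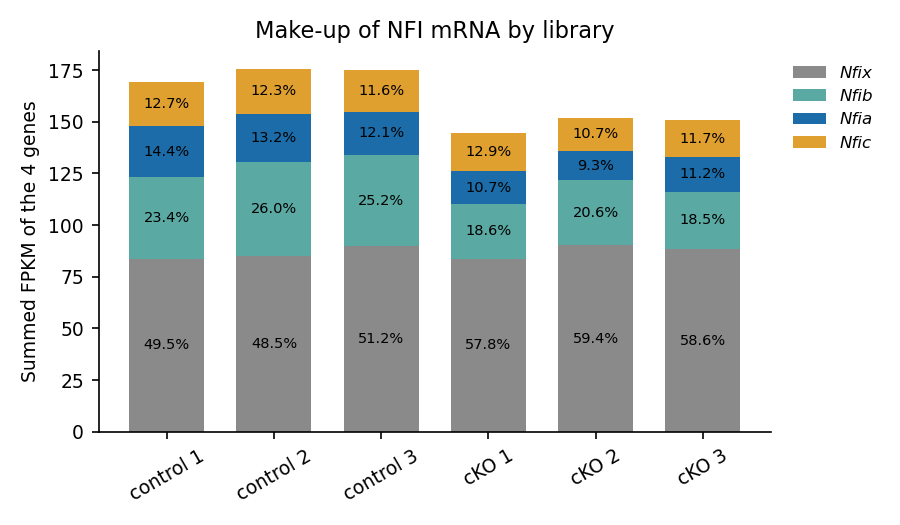
Summed FPKM of the 4 NFI genes in each library, stacked by gene, with each gene's share of the sum printed in its segment. The Nfix segment had a like height in all 6 libraries while its share was 48.5% to 51.2% in the controls and 57.8% to 59.4% in the cKO libraries.

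Genes that overlap the members in the genome were examined, since the strand setting of the read counting is not given in the sources used here. E130114P18Rik, a protein-coding annotation on the opposite strand at the 5′ end of Nfia, was at 54.7 CPM in the controls and 35.3 CPM in the cKO libraries, with a log2 fold change of -0.63 (SE 0.11, adjusted p = 0.00227, edgeR), and was called lower. Its exons share 4 bases with those of Nfia, 0.0367% of the Nfia exons. Gm11266, an antisense RNA within Nfib, averaged 18.1 CPM in the controls and 13.7 CPM in the cKO libraries (log2 fold change -0.40, adjusted p = 0.00973, edgeR), and its exons share none with Nfib. Gm16104, an antisense RNA within Nfic, averaged 1.58 and 0.446 CPM (log2 fold change -1.79, adjusted p = 0.00819, edgeR) and shares 72 exonic bases, 1.09% of the Nfic exons. Nfia, Nfib and Nfic thus each overlapped a gene annotated on the opposite strand whose count was lower at an adjusted p under 0.01, where 7.24% of tested genes were. Gm16104 had at most 27 reads in any library. Whether these counts come from RNA of the opposite strand was not tested. Reads on exons that belong to 1 gene alone, which is nearly all of the exonic sequence of these members, are assigned by position. Only in the few shared bases, or in introns of the one gene that hold exons of the other, can reads not be told apart without strand.

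Over Nfix, the opposite-strand genes Lyl1 (log2 fold change -0.19, adjusted p = 0.396) and G430095P16Rik (1.16, adjusted p = 0.0746, edgeR) were not called. The genes next to the members were not called either, where they could be tested. Celf5, the neighbour of Nfic and an RNA-binding protein gene, had a log2 fold change of 0.22 (adjusted p = 0.0232). Zdhhc21 beside Nfib was at -0.19 (adjusted p = 0.494), Trmt1 beside Nfix at 0.10 (adjusted p = 0.323), Dand5 beside Nfix at 0.12 (adjusted p = 0.789) and Smim24 beside Nfic at -0.01 (adjusted p = 0.990, edgeR for all).

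Genes linked to NFI function in granule neuron maturation moved in both directions. Of 8 genes, 7 could be tested, 1 was called lower and 1 was called higher, with a median log2 fold change of -0.10 beside -0.01 for all tested genes. Cntn2, which encodes the axonal adhesion molecule TAG-1 of young granule neurons, was at 285, 247 and 276 CPM in the controls and 157, 153 and 156 CPM in the cKO libraries. It fell without overlap (log2 fold change -0.79, SE 0.06, adjusted p = 1.79e-05, edgeR). Wnt7a, a Wnt ligand of maturing granule neurons, was at 6.44, 5.47 and 6.68 CPM in the controls and 11.4, 9.19 and 9.40 CPM in the cKO libraries. It was called higher (0.69, SE 0.15, adjusted p = 0.00693, edgeR), where 3.03% of tested genes were called higher, but the call was kept in 10 of 18 alternatives only.

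Grin2c, the NMDA receptor subunit of mature granule neurons, was at 16.7, 24.3 and 37.8 CPM in the controls and 16.1, 15.6 and 16.8 CPM in the cKO libraries. Control 1 overlapped the cKO group and the spread between controls was wide (log2 fold change -0.70, SE 0.24, adjusted p = 0.0549, edgeR). Without control 1, Grin2c was called lower. The adhesion genes Cdh2 (log2 fold change -0.10, adjusted p = 0.147) and Efnb1 (0.04, adjusted p = 0.694), and the transcription factors Etv1 (-0.22, adjusted p = 0.122) and Nfatc4 (0.07, adjusted p = 0.692), were not called. Gabra6, a GABA receptor subunit of mature granule neurons, averaged 0.303 CPM in the controls and 0.312 CPM in the cKO libraries, too low to be tested at this age.

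Of the 12 NFI-linked glial and progenitor genes, all tested, 3 were called higher and 1 lower, where 3.03% of all tested genes were called higher and 3.63% lower. The median log2 fold change of the 12 genes was 0.19. Gfap, the intermediate filament of astrocytes, was at 48.1, 36.7 and 36.3 CPM in the controls and 92.2, 129 and 103 CPM in the cKO libraries. It rose without overlap (log2 fold change 1.42, SE 0.14, adjusted p = 1.03e-04, edgeR). Mmd2, a gene that NFIA and SOX9 control in glial progenitors, rose from 101 ± 2.50 to 180 ± 11.5 CPM (0.83, SE 0.06, adjusted p = 1.51e-05, edgeR). Aqp4, the water channel of astrocyte endfeet, rose from 208 ± 17.3 to 324 ± 54.7 CPM (0.64, SE 0.11, adjusted p = 0.00200, edgeR). The Aqp4 call was kept in 13 of 18 alternatives and was lost without control 3.

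Ezh2, the Polycomb histone methyltransferase that NFIB is known to repress, was the gene called lower, at 71.9, 73.2 and 67.0 CPM in the controls and 42.7, 44.1 and 54.1 CPM in the cKO libraries (log2 fold change -0.59, SE 0.09, adjusted p = 0.00137, edgeR). The astrocyte glutamate transporter gene Slc1a3 was higher without overlap, with a log2 fold change of 0.37 inside the fold threshold (adjusted p = 2.20e-04, edgeR). The radial glia gene Fabp7 (0.14, adjusted p = 0.0492), the glial factor Sox9 (-0.05, adjusted p = 0.594), and Apcdd1 (0.12, adjusted p = 0.0926) and Zcchc24 (0.24, adjusted p = 0.0941), which NFIA and SOX9 share as targets, were not called. Neither were Hes1 (0.32, adjusted p = 0.0933), Bbx (-0.49, adjusted p = 0.0742) and Insc (-0.47, adjusted p = 0.0975, edgeR for all).

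**Figure D4:**
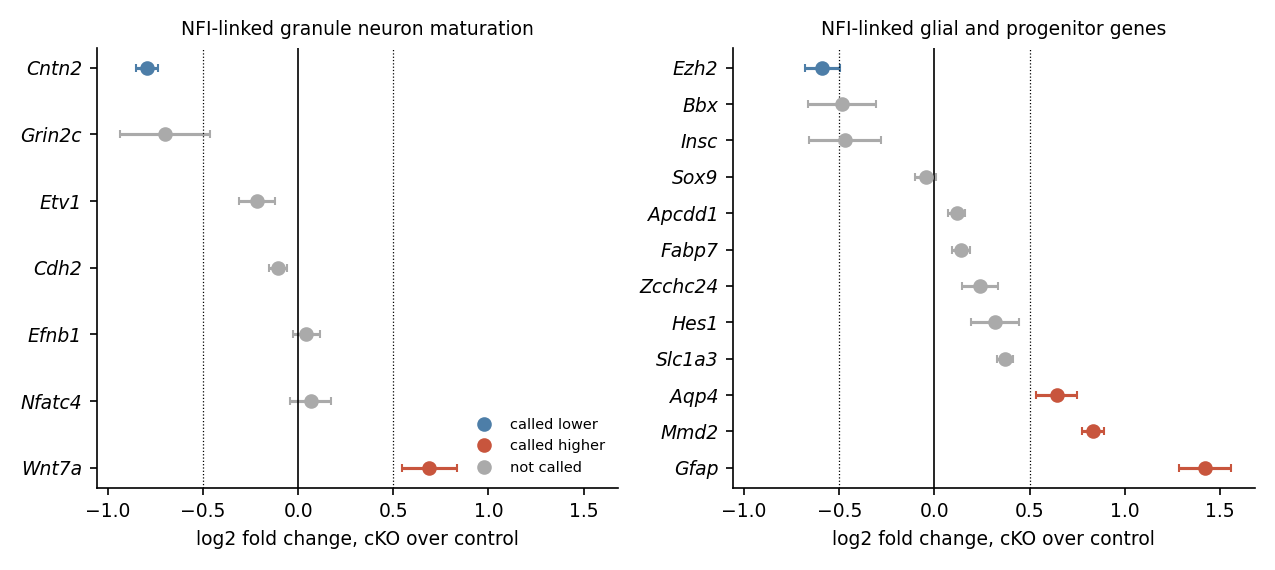
Log2 fold change (cKO over control) of tested genes linked to NFI function, with the SE of the edgeR fit as bars, dotted lines at the fold threshold of 0.5 in either direction and colours for the calls. Cntn2 and Ezh2 were called lower, and Wnt7a, Aqp4, Mmd2 and Gfap higher.

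Marker genes of cerebellar cell types differed between the groups as well. Beside the counts that follow, 3.63% of all tested genes were called lower and 3.03% higher. In whole tissue, fewer cells of a type and less RNA per cell cannot be told apart. All 12 GNP markers were called lower, and their summed level was 2282 to 2424 CPM in the controls and 1055 to 1126 CPM in the cKO libraries. Atoh1 was at 31.8 ± 0.873 CPM in the controls and 0.362 ± 0.186 CPM in the cKO libraries (SD, n = 3). Barhl1, a homeobox gene of the granule lineage, had a log2 fold change of -2.59, and the cell cycle gene Ccnd1 of -1.05. Of the 12 markers, none was at 0, and the median log2 fold change was -1.13, greater in size than that of any NFI gene.

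Of 14 markers of postmitotic granule neurons, 6 were called lower and none higher (1 at an unadjusted p under 0.05 in edgeR, 2 in DESeq2, with none called by either), with a median log2 fold change of -0.38. By sign alone 11 were lower and 3 higher. Among the higher ones Astn1, named after its value was seen, was at 0.23 without overlap, inside the fold threshold (adjusted p = 0.00625, edgeR). The summed level of the 14 markers was 4076 to 4270 CPM in the controls and 3294 to 3714 CPM in the cKO libraries. Neurod1, a factor of newborn granule neurons, had a log2 fold change of -1.16, Cadps2, a vesicle release factor, of -1.77, and Nhlh1 of -1.78. The 5 markers of the granule lineage at all stages had a median of -0.33, and 1 of them, Pax6, was called lower (-0.99). The values of Nfia and Nfib lay between the median of the GNP markers and that of the postmitotic markers.

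Most glial and Purkinje cell markers went the other way. Of 7 markers of astrocytes and Bergmann glia, 4 were called higher, with a summed level of 1279 to 1299 CPM in the controls and 1980 to 2098 CPM in the cKO libraries. Gdf10, a Bergmann glia marker, had a log2 fold change of 1.18 and Aldoc of 0.67. Of 5 oligodendrocyte lineage markers, 3 were called higher (summed 386 to 407 and 453 to 483 CPM), among them Sox10 at 0.97. Pdgfra, a receptor of oligodendrocyte progenitors, was lower without overlap, at -0.45 inside the fold threshold (adjusted p = 3.07e-04, edgeR). Of 9 Purkinje cell markers, 5 were called higher (summed 1605 to 1687 and 2166 to 2529 CPM), with Skor2 at 0.78. Lhx1, named after its value was seen, was the 1 Purkinje marker that was lower, at -0.38 inside the fold threshold and without overlap (adjusted p = 7.78e-04, edgeR).

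Of 6 markers of GABAergic progenitors and interneurons, 2 were called higher and 1 lower (summed 429 to 448 and 601 to 623 CPM), with Gad1 at a log2 fold change of 0.58. The gene called lower was Ptf1a, named after its value was seen, at -1.18 without overlap (adjusted p = 0.00552, edgeR). It had 28 to 93 reads per library, and with single libraries left out its call was kept only without cKO 2. Of 6 markers of nuclear neurons and unipolar brush cells, 1 was called higher, Meis2 at 0.66 (summed 204 to 213 and 180 to 181 CPM). The Meis2 call was lost without cKO 1, without cKO 3 and with limma-trend on FPKM. Slc17a6, the vesicular glutamate transporter gene, at -0.49 (adjusted p = 4.59e-04), and Eomes, a factor of unipolar brush cells, at -0.42 (adjusted p = 0.00125, edgeR), were lower without overlap but inside the fold threshold. Slc17a6 was called lower without control 1 and without cKO 1. Microglia markers summed to 67.1 to 73.3 and 87.5 to 100.02 CPM with 1 of 5 called higher, and meningeal markers to 354 to 381 and 527 to 626 CPM with 2 of 5 called higher. The microglia call was lost with limma-trend, and without control 1, control 2, cKO 1 or cKO 3. Endothelial markers summed to 336 to 366 and 326 to 336 CPM, and none of 5 was called by edgeR or DESeq2, with 1 at an unadjusted p under 0.05 in each. Choroid plexus markers ran from 74.0 to 139 CPM in the controls and from 10.9 (cKO 2) to 731 CPM (cKO 3) in the cKO libraries. In the main fit none of 4 was called, with 1 at an unadjusted p under 0.05 in edgeR and 0 in DESeq2. With no filter on low counts, and without cKO 2, 2 were called higher and 4 were at an unadjusted p under 0.05 (edgeR). The same held with control 1 and cKO 2 both left out. The part of these shifts between cell types in the change of Nfia, Nfib and Nfic was not tested.

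**Figure D5:**
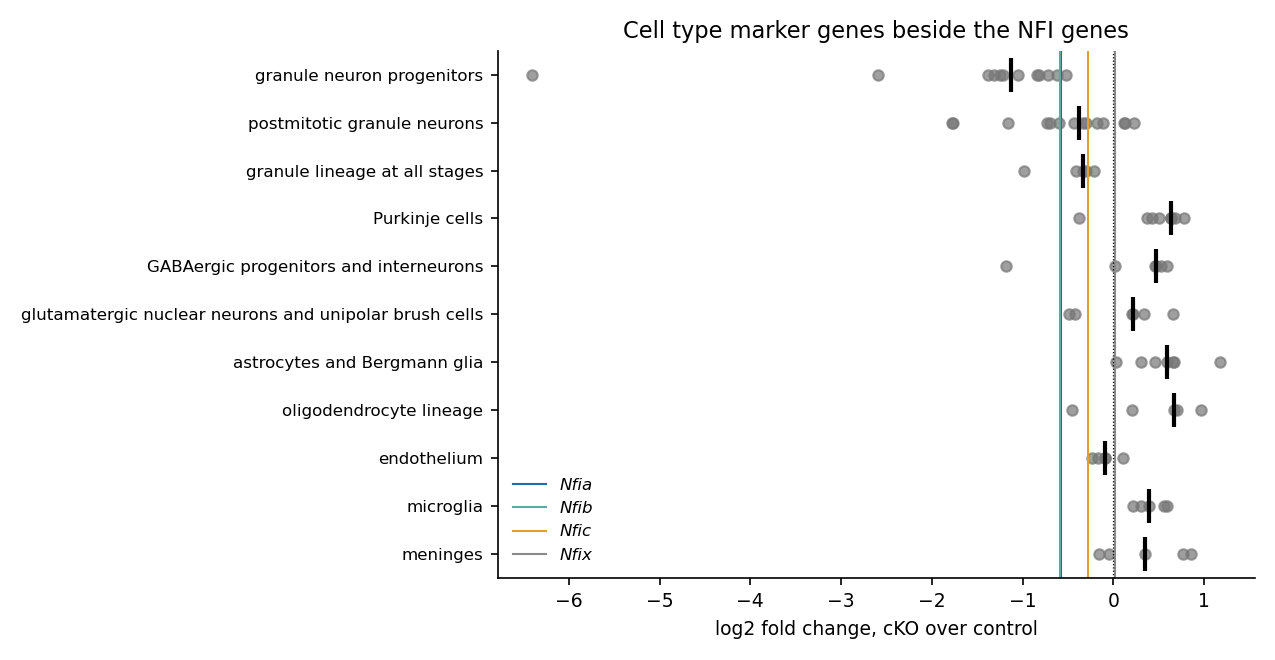
Log2 fold change (cKO over control) of each tested marker gene by cell type (grey points, with the median as a black bar), with vertical lines at the values of the 4 NFI genes. Nfia at -0.57 and Nfib at -0.59 nearly coincide and sit between the medians of GNP markers, -1.13, and postmitotic granule neuron markers, -0.38.

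Genes with the most similar pattern to each member were found by Pearson's r of log2 CPM over the 6 libraries, among the 11071 tested genes that averaged 10 CPM or more. These points share the difference between the groups and the 2 libraries that stood apart, so the values are a description. For Nfia they were Brpf3, a scaffold of histone acetyltransferase complexes (r = 0.999), Rasa3 (0.997) and Rnf2, a Polycomb ubiquitin ligase (0.997). For Nfib they were the spliceosome gene Snrpf, Ccdc71 and the histone chaperone gene Supt16, each at 0.997. For Nfic they were Ubr7 (0.998), Ankrd16 (0.998) and the bromodomain gene Brd3 (0.996). For Nfix the closest were Mob3b (0.964), Agk (0.961) and Acbd6 (0.961). An r above 0.95 was reached by 461 genes with Nfia, 545 with Nfib and 224 with Nfic, but by 3 genes with Nfix.

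Among transcription factor genes, those nearest to Nfib in log2 fold change were Prdm8 (-0.59, adjusted p = 7.05e-04) and Foxm1, a driver of mitotic genes (-0.59, adjusted p = 2.22e-04, edgeR). Those nearest to Nfia were Gm10509 (-0.57, adjusted p = 0.148) and Bhlha15 (-0.58, adjusted p = 0.515), neither of which was called. Nearest to Nfic were Arnt (-0.28, adjusted p = 0.0122) and Zfp69 (-0.28, adjusted p = 0.366), and nearest to Nfix were Zfp979 (0.01, adjusted p = 0.976) and Mbd1 (0.02, adjusted p = 0.896, edgeR for all). Of tested transcription factor genes, 6.23% had a lower log2 fold change than Nfib and 7.25% a lower one than Nfia, against 27.8% for Nfic and 67.9% for Nfix.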

How the data were processed

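Total RNA of P1 cerebella was poly(A)-selected and sequenced. The authors deposited raw counts per gene, from reads aligned with HISAT2 2.0.5 to mouse GRCm38 (mm10) and counted with featureCounts 1.5.0-p3 according to the submitters' processing notes, and FPKM values that the authors computed from counts and gene length. Whether counting used strand, and how reads with several matches were treated, is not given in the sources used here. Gene positions in the deposited table equal those of GENCODE M21 for 98.3% of 54495 shared identifiers.

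Groups came from the sample labels. The labels name separate littermates but not litters. The edgeR p-values set each group difference against the spread between these libraries, moderated over the tested genes. Counts were tested with the quasi-likelihood test of edgeR 4.0.16 in R 4.3.3 (TMM scaling, low counts removed by filterByExpr, no covariate), with Benjamini-Hochberg adjustment over all 17505 genes tested. CPM values are counts scaled to TMM-normalized library totals. A gene was called when its adjusted p was below 0.01 and its log2 fold change was larger than 0.5 in size, as in the study's methods. The common dispersion was 0.0105. Libraries of a group differed by more than sampling noise (chi-square per gene 3.48 to 9.23). Tested on simulated data for this comparison with 17435 genes, edgeR recovered 157 of 200 changed genes, and 125 of the 131 that changed at least 2-fold, with 1 false call. Recovery was counted at an adjusted p under 0.01 without the fold threshold, and all genes were simulated at the common dispersion. Changes under 2-fold were recovered less often, over genes of many count levels. The dispersions estimated for Nfia and Nfib were 0.00541 and 0.00728, below the common value, so this recovery need not hold for them. No sex difference or outlying library was simulated.

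Alternatives used DESeq2 1.42.0, limma 3.58.1 (limma-trend on log2(FPKM + 1) or log2(FPKM + 0.1)), other scalings, filters, a replicate block, a Y chromosome covariate and each library left out. Named genes were the members, Tox3, Atoh1, all genes of the NFI-linked lists, at most 3 genes with the smallest p of other lists, genes of similar pattern or fold change, and overlapping or neighbouring genes. Lhx1, Astn1 and Ptf1a were added after their values were seen. The Aqp4, Wnt7a and Grin2c alternatives were looked up after their values were seen. The members and lists were chosen with earlier results of these data known. Transcript sequences were compared with Biopython 1.88. Protein sequences and a promoter of Nfib were not used here.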

Additional observations from a re-analysis of the deposited data

How the results depend on the processing

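Over 18 alternatives, Nfib kept its call and direction in 18, with log2 fold changes of -0.72 to -0.53, and Nfix was not called in any (-0.03 to 0.05). Nfia was called in 16 (-0.64 to -0.46). It was lost with limma-trend on log2(FPKM + 1) with no filter on low values (-0.54, adjusted p = 0.0121) and with control 1 and cKO 2 both left out, chosen after seeing the data (-0.46), and 1 member was called lower in each. With control 1 and cKO 2 both left out, the groups also differed fully in sex. Nfic, at -0.32 to -0.21, was called only at an adjusted p under 0.05 with no fold threshold (-0.28). With each library left out in turn, 2 members were called each time, with Nfia at -0.64 to -0.51.

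Genes called lower, 635 in the main analysis, were 360 and 416 with limma-trend at pseudocounts of 1 and 0.1 and 286 with no filter on low values, 1144 without control 1 and cKO 2, 2252 at an adjusted p under 0.05, and 492 to 778 with each library left out. Genes called higher, 530 in the main analysis, were 243, 297 and 176 with limma-trend, 2136 at an adjusted p under 0.05, and 349 (without cKO 3) to 569 with each library left out. Among the maturation genes, 2 were called lower with no filter on low counts and without control 1 and cKO 2, and 1 to 2 with each library left out (2 without control 1). None was called higher with the 3 limma-trend settings, with 1 at an unadjusted p under 0.05, where edgeR and DESeq2 called 1. With each library left out 0 to 1 was called higher, and Wnt7a kept its call only without cKO 2. Among the glial and progenitor genes, 0 were called lower with the 3 limma-trend settings, with 1 to 2 at an unadjusted p under 0.05, where edgeR and DESeq2 called 1, 2 without control 1 and cKO 2, and 1 to 2 with each library left out (2 without cKO 2). At an adjusted p under 0.05, 5 were called higher. The log2 difference of the Nfia to Nfib ratio ranged from -0.063 to 0.15 with each library left out. The cause of these shifts was not tested.

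Correlations of deviations between same-numbered libraries were 0.24, 0.26 and -0.16. Between a control and a cKO library, the correlation was positive for every pair of like sex and negative for every other pair. These values thus cannot decide whether the replicate numbers pair the libraries. With the replicate block, Nfia was at -0.57 and Nfib at -0.59, Nfic at -0.28 and Nfix at 0.01, with 2 members called lower, and 696 genes were called lower and 561 higher. With the Y chromosome covariate, Nfia was at -0.62, Nfib at -0.53, Nfic at -0.30 and Nfix at 0.04, with 2 members called lower. The members had 1671 to 10672 reads per library, and what limits the precision of their values was not tested.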
